A study of Mus musculus with 6 samples.

Results

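Wnt proteins are secreted, lipid-modified signals that bind Frizzled receptors on the cell surface. With the co-receptors LRP5 and LRP6 they stabilise beta-catenin, which acts with TCF and LEF factors on target genes, and through other co-receptors they act on cell polarity and calcium. R-spondins keep Frizzled receptors at the surface. Secreted Frizzled-related proteins (Sfrp), Wif1 and the Dickkopf proteins (Dkk) other than the divergent Dkk3 bind Wnts or LRP co-receptors outside the cell. In the brain these signals are known for building the blood-brain barrier, guiding axons and patterning the cortex. The genes described here are the Wnt ligands, R-spondins, Frizzled receptors, LRP5 and LRP6, and these secreted inhibitors, with Dkk3 counted among them by its symbol. They were taken by symbol from a table of 56826 gene rows, in which 44 rows matched: 19 Wnt ligands, 4 R-spondins, 10 Frizzleds, 2 LRP co-receptors and 9 secreted inhibitors. Related genes with other symbols, such as Frzb, are treated below as pathway genes outside the family.

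RNA was measured in cerebral cortex of wild-type C57BL/6 mice, an inbred strain. The injured group was cortex around the lesion 24 h after traumatic brain injury (TBI, 3 libraries), and the control group was normal cortex (3 libraries). The labels name no treatment or allele that differs between the groups apart from the injury, and how the injury was made is not given in the sources used here. Nothing in the labels says that libraries came from separate animals, so the p-values below measure the spread between these libraries, which may be technical.

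Total counts over gene rows were 67252519 to 83929814 per library, and they overstate the reads because rows overlap. The 3 libraries of each group differed from one another by more than counting error, with a chi-square per row of 7.91 to 19.4, and no pair agreed within it. All 9 cortical neuron markers were detected in every library, the lowest at 3.39 RPKM (a count divided by row length and by the library's total, the scale of all levels below). Markers of some other cells differed between the groups. The summed level of 5 monocyte and neutrophil markers was 41.6 to 109.8 RPKM in TBI, against 3.04 to 5.13 RPKM in control, and all 5 rose. The sum of 7 choroid plexus markers was 256.7 to 630.5 RPKM in TBI and 92.5 to 171.5 RPKM in control (4 rose, none fell). Most of that sum was Ttr, at 246.8 to 606.3 RPKM in TBI and 85.1 to 162.8 RPKM in control. The sum of 7 meningeal fibroblast markers was 30.0 to 36.8 RPKM in TBI and 15.3 to 24.8 RPKM in control (3 rose, 1 fell). Endothelial markers summed to 56.9 to 58.3 RPKM in TBI and 44.4 to 49.9 RPKM in control (2 of 6 rose, 1 fell), and neuron markers to 770.3 to 891.9 RPKM in TBI and 916.7 to 992.0 RPKM in control (none of 9 rose, 4 fell). Astrocyte markers summed to 519.6 to 569.8 RPKM in TBI and 400.2 to 426.6 RPKM in control (3 of 6 rose, 2 fell). The higher sum was due to Gfap, at 179.4 to 221.0 RPKM in TBI and 17.8 to 24.7 RPKM in control. Slc1a2, which fell along with Gja1, had 141.3 to 154.3 RPKM in TBI and 186.6 to 209.4 RPKM in control. Among microglial markers, summing to 61.1 to 64.4 RPKM in TBI and 63.1 to 67.6 RPKM in control, 2 of 5 rose and 2 fell. No marker measured was at 0 in all libraries of either group. The sums of microglial, oligodendrocyte and mural cell markers overlapped between the groups, and the other sums did not. Their part in the results below was not tested. In bulk tissue, fewer cells of a type and less RNA per cell cannot be told apart.

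Injured cortex differed from control cortex in single members of every role except the LRP co-receptors, with as many members higher as lower. Of the 44 members, 39 had enough counts to be tested, and 12 were called at an adjusted p under 0.05 by edgeR's quasi-likelihood test with Benjamini-Hochberg adjustment over all rows. Higher in TBI were the ligands Wnt9b, Wnt3 and Wnt7b, the receptors Fzd7 and Fzd1, and the inhibitor Sfrp4. Lower in TBI were the ligands Wnt9a and Wnt4, the receptors Fzd2, Fzd10 and Fzd3, and the R-spondin Rspo1. The 12 calls are 30.8% of the tested members. Among all 42762 gene rows tested 17.5% were called (9.12% higher and 8.36% lower), and among the 16941 tested rows with a gene name 26.1% were called (15.4% higher and 10.7% lower), so the members' share is close to that of named genes.

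The libraries of the groups did not overlap for 18 of the 39 tested members, 12 with all TBI libraries above and 6 with all below. Overlap was judged on RPKM, which puts TBI 0.08 (log2) higher against control than the scaling used for the calls. Among all rows tested the libraries did not overlap in 34.5%, and among named rows in 45.6%. The median log2 fold change of the tested members was 0.039, against 0.0055 over all rows and 0.017 over named rows. A set of 7 calls (Fzd2, Fzd3, Rspo1, Sfrp4, Wnt3, Wnt7b and Wnt9a) was kept under all 13 alternative settings tried, and the other 5 are marked where they are described.

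**Figure D1:**
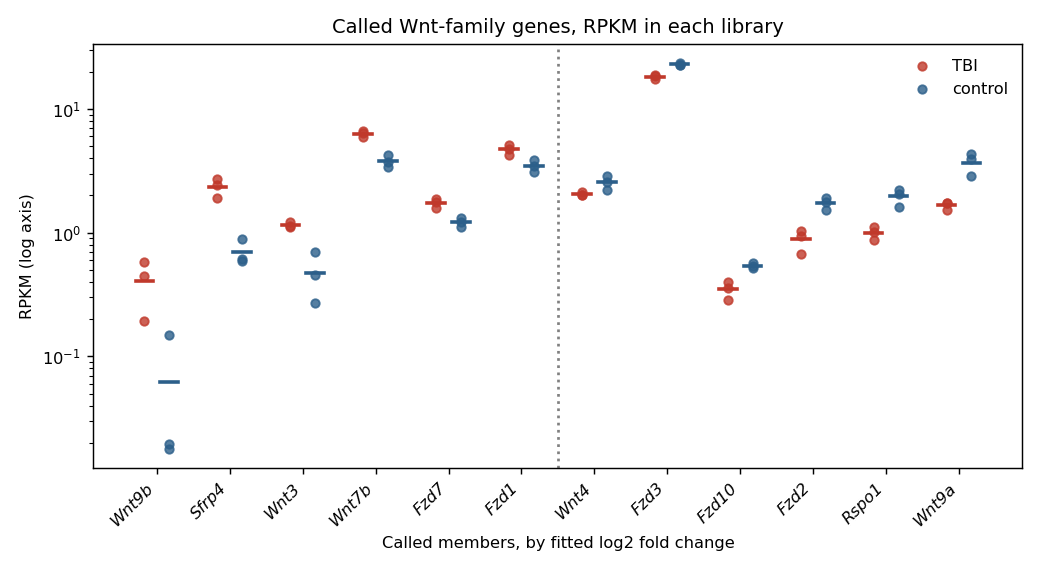
Level of each called member (RPKM, log axis) in the 3 TBI libraries (red) and the 3 control libraries (blue); each point is 1 library and each bar the group mean. Members are ordered by fitted log2 fold change, with the 6 that rose left of the dotted line and the 6 that fell right of it, and in all 12 the points of the groups do not overlap.

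Among the 17 ligands tested, 3 rose and 2 fell. Wnt7b, which with Wnt7a acts on brain endothelium in building the blood-brain barrier, had the highest mean of the ligands in both groups. It lies on chromosome 15 (85535437 to 85581821, minus strand; coordinates here are those of the deposited table, build mm10). Its level was 5.88, 6.38 and 6.68 RPKM in TBI and 3.37, 4.23 and 3.71 RPKM in control. Every TBI library was above every control library, and the log2 fold change was 0.67 ± 0.09 (SE; edgeR adjusted p = 0.000295). All 3 of its transcript rows, which share reads, were also called higher. The row AU022754, inside Wnt7b on the other strand, stood at 0.320 ± 0.00623 RPKM in TBI and 0.248 ± 0.0377 RPKM in control (means with SD over n = 3 libraries in each group, here and below) and was not called. Wnt7a itself, on chromosome 6, had 2.26, 2.52 and 2.64 RPKM in TBI and 2.08, 2.67 and 2.28 RPKM in control. Its libraries overlapped, and the 95% interval of its log2 fold change ran from -0.25 to 0.25.

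Wnt9b and Wnt3 are head-to-head neighbours on chromosome 11, and both were higher in TBI. Wnt9b, known in mice for inducing kidney tubules, occupies 103727363 to 103749821 on the minus strand, and Wnt3, an activator of the beta-catenin branch in early mouse development, 103774175 to 103818021 on the plus strand, with 24.353 kb between their starts. Both were low. Wnt9b had 186, 63 and 138 counts (0.578, 0.193 and 0.444 RPKM) in TBI and 6, 6 and 56 counts (0.0197, 0.0179 and 0.148 RPKM) in control. Control replicate 3 stood well above the other control libraries but below the lowest TBI library. The log2 fold change was 2.56 ± 0.60 (SE; edgeR adjusted p = 0.0109), a size that control replicate 3 decides in part: without it the value was 4.33 (edgeR adjusted p = 0.000576). Without TBI replicate 1 the call was lost (2.22, edgeR adjusted p = 0.0573), as it was with DESeq2 (2.61, adjusted p = 0.0644). Limma on log2(RPKM + 0.1) kept the call at a smaller value of 1.65 (adjusted p = 0.0176).

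Wnt3 had 1.14, 1.11 and 1.23 RPKM in TBI and 0.458, 0.269 and 0.696 RPKM in control. The TBI libraries lay close together and all above the control libraries, which were more spread. Control replicate 3 was the highest control library for Wnt3, as it was for Wnt9b and for Tcf7l2 and Lef1 below. Its log2 fold change was 1.20 ± 0.26 (SE; edgeR adjusted p = 0.00733). Set against Wnt4, a ligand that fell, Wnt3 had RPKM ratios of 0.567, 0.548 and 0.580 in TBI and 0.179, 0.120 and 0.242 in control. As neither gene overlapped between the groups and they moved in opposite directions, the ratios had to separate too. They were not tested.

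The largest fall among the ligands was in Wnt9a, the closest relative of Wnt9b and known in mice for joint formation. Wnt9a is on chromosome 11 (59306850 to 59333554, plus strand). It had 1.52, 1.74 and 1.72 RPKM in TBI, against 4.29, 2.86 and 3.92 RPKM in control. The TBI libraries were all below the lowest control library, and the log2 fold change was -1.24 ± 0.15 (SE; edgeR adjusted p = 0.000136). Its divergent neighbour Wnt3a, 16.098 kb away, had too few counts to test. Wnt4, which acts in kidney and the female reproductive tract, lies on chromosome 4 (137277635 to 137299501, plus strand). Its level was 2.01, 2.03 and 2.12 RPKM in TBI and 2.56, 2.23 and 2.88 RPKM in control. The groups did not overlap, but the gap between the highest TBI and the lowest control library was small. Wnt4 fell by 0.40 ± 0.12 on the log2 scale (SE; edgeR adjusted p = 0.0329). This call was lost without any 1 library other than control replicate 2 (adjusted p = 0.0935, 0.0701 and 0.0591 without TBI replicates 1, 2 and 3, and 0.0897 and 0.155 without control replicates 1 and 3, all by edgeR) and with limma on log2(RPKM + 0.1) (adjusted p = 0.125).

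The 250 bases before the RefSeq start of these 4 ligands are shown because 2 of them rose and 2 fell, and because Wnt9b and Wnt3 share the stretch between their starts. They are RefSeq sequences of GRCm38.p6, 5′ to 3′ on the gene's own strand, with capitals marking the core of the TCF/LEF motif, CTTTG or its reverse complement CAAAG. Wnt9b is from chr11:103749822-103750071 (minus strand), Wnt3 from chr11:103773925-103774174 (plus strand), Wnt9a from chr11:59306680-59306929 (plus strand) and Wnt4 from chr4:137277385-137277634 (plus strand). The RefSeq start of Wnt9a lies inside the deposited row, so the last 80 of its 250 bases are within that row, and the other 3 windows end at the row's edge.
Wnt9b: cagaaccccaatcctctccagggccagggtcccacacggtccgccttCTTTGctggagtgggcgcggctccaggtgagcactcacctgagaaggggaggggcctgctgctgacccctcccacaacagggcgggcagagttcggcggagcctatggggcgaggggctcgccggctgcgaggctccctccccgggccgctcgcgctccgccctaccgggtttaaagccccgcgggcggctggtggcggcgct
Wnt3: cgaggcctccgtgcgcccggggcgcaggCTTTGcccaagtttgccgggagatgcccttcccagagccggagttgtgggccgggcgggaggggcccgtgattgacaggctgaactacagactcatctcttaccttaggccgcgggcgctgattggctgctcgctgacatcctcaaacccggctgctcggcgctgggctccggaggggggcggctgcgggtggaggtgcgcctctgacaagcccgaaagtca
Wnt9a: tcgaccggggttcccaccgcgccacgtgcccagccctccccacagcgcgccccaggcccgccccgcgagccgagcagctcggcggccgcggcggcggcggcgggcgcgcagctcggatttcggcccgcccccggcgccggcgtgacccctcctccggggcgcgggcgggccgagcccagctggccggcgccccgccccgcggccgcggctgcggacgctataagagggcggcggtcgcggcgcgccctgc
Wnt4: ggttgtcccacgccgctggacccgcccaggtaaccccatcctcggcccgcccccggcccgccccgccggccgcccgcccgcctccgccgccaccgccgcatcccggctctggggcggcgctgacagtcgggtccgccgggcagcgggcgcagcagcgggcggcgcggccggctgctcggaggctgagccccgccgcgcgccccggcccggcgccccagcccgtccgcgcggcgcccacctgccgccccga
Of these 4, Wnt9b and Wnt3 each hold 1 core match, and Wnt9a and Wnt4 hold none in this window. Windows were available for 8 called members, and 5 of them (62.5%) held the core, among them that of Fzd10, which fell. Over the 31 windows available for 28 members, 41.9% held the core on either strand, against 48.6% of all 32851 windows of this length. A longer form, CTTTGAA or CTTTGAT on either strand, which contains the core, was in 9.68% of member windows and 7.48% of all windows. None of the 8 windows of called members held this longer form. Member windows were rich in G and C, with a median GC content of 68.0% and 22 CG pairs, compared with 52.4% and 6 over all windows. A match is a description of these letters only.

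The other ligands above 1 RPKM were not called, and their libraries overlapped between the groups. Wnt10a had 3.85, 2.16 and 2.59 RPKM in TBI and 2.52, 1.53 and 2.24 RPKM in control (log2 fold change 0.37, 95% interval -0.12 to 0.86). Wnt2 had 1.57, 1.27 and 1.83 RPKM in TBI and 1.84, 1.88 and 1.80 RPKM in control (log2 fold change -0.32, 95% interval -0.64 to 0.0050). Wnt5a, the main ligand of the polarity branch, had 1.50, 1.71 and 1.62 RPKM in TBI and 1.37, 1.54 and 1.54 RPKM in control, with an interval of -0.20 to 0.27. These intervals leave out a change of the size seen for Wnt9a in any of the 3 genes.

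Of the ligands below 1 RPKM, Wnt10b depended on 1 library. It is named here after its values were seen, with 73, 75 and 19 counts in TBI and 31, 27 and 28 in control (log2 fold change 0.94, edgeR adjusted p = 0.161). TBI replicate 3 was below the control libraries and the other TBI libraries were above them. Without TBI replicate 3 the value was 1.33 and edgeR called it (adjusted p = 0.0106). Its neighbour Wnt1, 9.864 kb away on chromosome 15, was not called, nor were the neighbours Wnt6 and Wnt10a on chromosome 1.

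Rspo1 was the only R-spondin called. R-spondins bind Lgr receptors and remove the ligases that clear Frizzled receptors from the membrane, and Rspo1 is known in mice for ovary development. The gene is on chromosome 4 (124986400 to 125009102, plus strand). It had 1.10, 1.02 and 0.880 RPKM in TBI and 2.23, 1.61 and 2.07 RPKM in control. All TBI libraries were below the control libraries, and the log2 fold change was -1.06 ± 0.17 (SE; edgeR adjusted p = 0.00110). Rspo3, the most abundant of the 4, had 4.74, 5.75 and 5.60 RPKM in TBI and 5.19, 5.69 and 5.90 RPKM in control (log2 fold change -0.14, 95% interval -0.36 to 0.077). Rspo2 had 3.72, 3.73 and 3.99 RPKM in TBI and 3.20, 2.29 and 4.20 RPKM in control (log2 fold change 0.15, 95% interval -0.22 to 0.53). The control libraries of Rspo2 lay both below and above the TBI libraries. Rspo4 had at most 6 counts per library and was not tested. That the fall was greater in Rspo1 than in Rspo2 or Rspo3 was not tested as such.

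All 10 Frizzled receptors were tested, and 2 rose and 3 fell. Fzd3, which guides forebrain axon tracts in mice, was the most abundant by far. It is on chromosome 14 (65192441 to 65262463, minus strand), with 18.4, 18.8 and 17.3 RPKM in TBI and 22.9, 23.4 and 22.7 RPKM in control. Libraries of each group agreed closely, and Fzd3 fell by 0.42 ± 0.07 on the log2 scale (SE; edgeR adjusted p = 0.00123). Another 3 rows, named by FANTOM3 cDNA clones and lying in Fzd3 on the same strand at similar levels, fell by 0.42 to 0.43. They share its reads and are no independent measurement.

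Fzd1, Fzd2 and Fzd7 form the closest subfamily of Frizzleds by sequence, and they moved in both directions. Fzd2, on chromosome 11 (102604431 to 102608058, plus strand), had 0.670, 1.04 and 0.945 RPKM in TBI and 1.91, 1.77 and 1.53 RPKM in control. The highest TBI library was still below the lowest control library, and the log2 fold change was -1.05 ± 0.16 (SE; edgeR adjusted p = 0.000797). Fzd7, on chromosome 1 (59482147 to 59486955, plus strand), had 1.89, 1.58 and 1.76 RPKM in TBI and 1.10, 1.32 and 1.22 RPKM in control. Fzd1, on chromosome 5 (4753839 to 4758216, minus strand), had 4.25, 4.73 and 5.12 RPKM in TBI and 3.43, 3.10 and 3.89 RPKM in control. For both genes all TBI libraries were above all control libraries. Fzd7 rose by 0.44 ± 0.11 (SE; edgeR adjusted p = 0.0167) and Fzd1 by 0.35 ± 0.11 (SE; edgeR adjusted p = 0.0397) on the log2 scale. The RPKM ratio of Fzd7 to Fzd2 was therefore 2.82, 1.53 and 1.86 in TBI and 0.577, 0.748 and 0.798 in control, so Fzd7 was above Fzd2 in each TBI library and below it in each control library. These ratios were not tested.

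The calls of Fzd7 and Fzd1 each survived the loss of 2 of the 6 libraries, 1 at a time. The Fzd7 call was lost without TBI replicate 1 (edgeR adjusted p = 0.0893), TBI replicate 3 (0.0541), control replicate 1 (0.0708) or control replicate 3 (0.0550). That of Fzd1 was lost without TBI replicate 2 (edgeR adjusted p = 0.0847), TBI replicate 3 (0.148), control replicate 1 (0.0994) or control replicate 2 (0.102). In each of these fits both log2 fold changes were above 0, at 0.37 to 0.50 for Fzd7 and 0.26 to 0.45 for Fzd1 over all 13 alternatives.

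Fzd10, of the subfamily of Fzd4 and Fzd9, was low and lower still after injury. On chromosome 5 (128601106 to 128604093, plus strand), it had 0.287, 0.399 and 0.360 RPKM in TBI and 0.537, 0.519 and 0.570 RPKM in control. The groups did not overlap, and the log2 fold change was -0.72 ± 0.19 (SE; edgeR adjusted p = 0.0218). The call was lost without TBI replicate 1 (-0.60, edgeR adjusted p = 0.0908), TBI replicate 3 (-0.75, 0.0531), control replicate 1 (-0.71, 0.0576) or control replicate 3 (-0.68, 0.0799), and with limma on log2(RPKM + 0.1) (-0.53, adjusted p = 0.0748).

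Of the receptors not called, Fzd8 had all TBI libraries above control, at 1.49, 1.71 and 1.92 RPKM in TBI and 1.25, 1.08 and 1.40 RPKM in control (log2 fold change 0.37 ± 0.14, SE; edgeR adjusted p = 0.0972). Fzd4, the receptor of Norrin in vessels of the retina and brain, had 2.12, 2.06 and 1.92 RPKM in TBI and 1.97, 2.003 and 1.91 RPKM in control (95% interval of the log2 fold change -0.24 to 0.19). Fzd6, which orients hair follicles in mice, had 2.45, 2.09 and 2.78 RPKM in TBI and 2.32, 2.10 and 2.60 RPKM in control (95% interval -0.30 to 0.25). Both of these genes had overlapping libraries. Fzd9 had 0.726, 0.952 and 1.06 RPKM in TBI and 1.13, 1.14 and 0.960 RPKM in control, with 1 control library below the highest TBI library (log2 fold change -0.32, 95% interval -0.71 to 0.066). Fzd4 overlaps Tmem135 on the other strand (11.3 ± 0.344 RPKM in TBI and 12.1 ± 0.386 RPKM in control), and whether the counting used strand is not given in the sources used here.

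Neither LRP co-receptor was called. Lrp6 had 7.98, 8.76 and 8.63 RPKM in TBI and 8.07, 8.85 and 8.87 RPKM in control (log2 fold change -0.10, 95% interval -0.26 to 0.055). Lrp5, below 1 RPKM and named after its values were seen, had 0.793, 0.919 and 0.885 RPKM in TBI and 0.561, 0.629 and 0.751 RPKM in control. Its TBI libraries were all above control, but it did not pass the test (log2 fold change 0.34 ± 0.14, SE; edgeR adjusted p = 0.132).

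Among the 7 secreted inhibitors tested, Sfrp4 rose and none fell. Sfrp4, a Frizzled-related protein on chromosome 13 (19623175 to 19632825, plus strand), had 2.70, 2.42 and 1.91 RPKM in TBI and 0.897, 0.591 and 0.617 RPKM in control. The lowest TBI library was above the highest control library by a wide margin. The log2 fold change of Sfrp4 was 1.66 ± 0.20 (SE), with the smallest p among the members (edgeR adjusted p = 0.000129). The other Frizzled-related proteins were not called. Sfrp1 had 1.91, 1.80 and 2.10 RPKM in TBI and 1.46, 1.73 and 1.60 RPKM in control, with no overlap (log2 fold change 0.20, 95% interval -0.034 to 0.43). Sfrp5, below 1 RPKM on average and named after its values were seen, had 0.510, 1.23 and 0.681 RPKM in TBI and 0.180, 0.454 and 0.445 RPKM in control. Its TBI libraries were all above control but wide apart (log2 fold change 1.07 ± 0.36, SE; edgeR adjusted p = 0.0618). It was called with DESeq2 (adjusted p = 0.0252), with no filter on low counts (0.0363) and without TBI replicate 1 (1.31, edgeR adjusted p = 0.0419).

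Dkk3, a divergent Dickkopf protein abundant in neurons, was the most abundant member of the whole family. It had 83.9, 70.6 and 75.2 RPKM in TBI and 88.0, 52.3 and 86.6 RPKM in control. Control replicate 2 was below all other libraries and the other control libraries were above them. The log2 fold change was -0.067, with a 95% interval of -0.43 to 0.30. Without control replicate 2 it was -0.29 and was called lower (edgeR adjusted p = 0.0301), so the result for Dkk3 turns on that library. Dkk1 and Dkk4, classical antagonists of LRP5 and LRP6, had at most 8 counts in any library and were not tested.

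**Figure D2:**
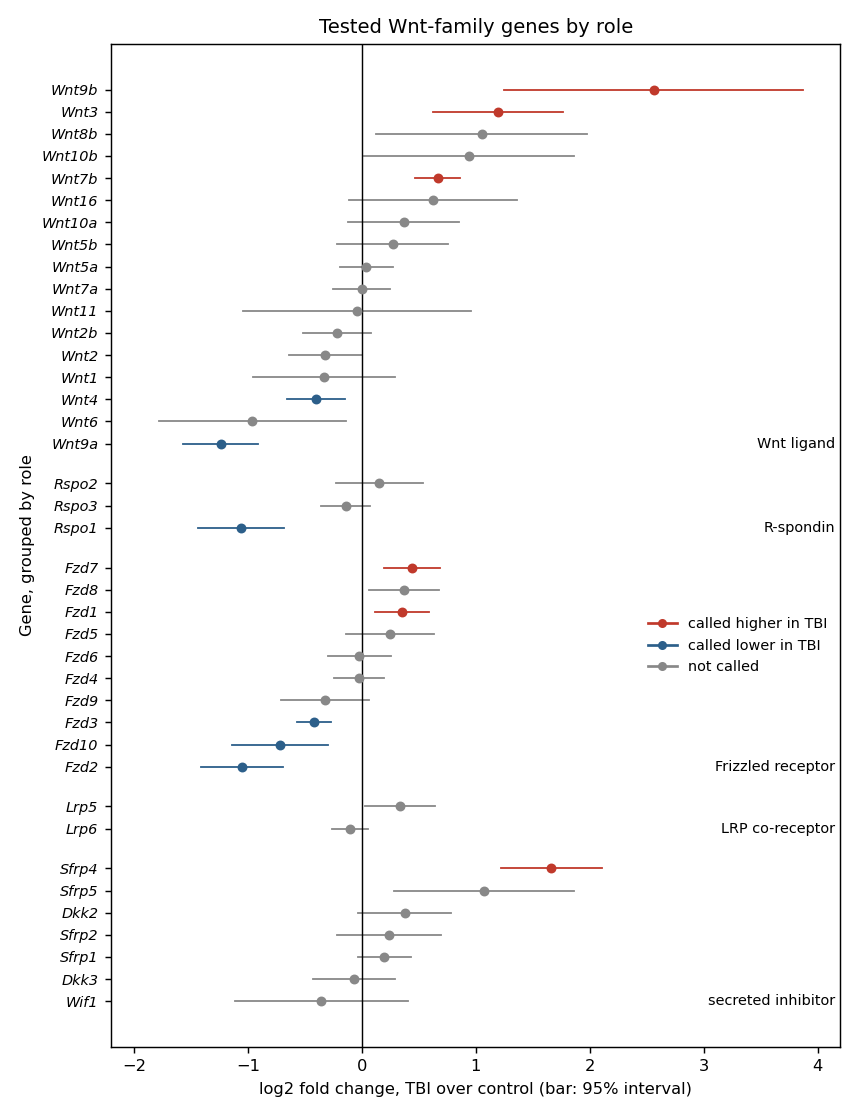
Fitted log2 fold change of TBI over control for the 39 tested members, grouped by role; points are estimates of edgeR and bars their 95% intervals, red where called higher in TBI, blue where called lower and grey where not called. Members of every role lie on both sides of 0, and the widest interval among the called members is that of Wnt9b (1.25 to 3.87).

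The remaining members were low. The 19 that were neither called nor reached a mean of 1 RPKM comprised 14 tested genes, whose group means were 0.0542 to 0.898 RPKM and whose log2 fold changes ran from -0.96 to 1.07, with SEs of 0.14 to 0.46. The 5 untested members (Dkk1, Dkk4, Rspo4, Wnt3a and Wnt8a) had 0 to 10 counts per library.

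By summed level, the injury libraries had a different makeup of ligands at a similar total. The 19 ligands summed to 22.8 ± 0.888 RPKM in TBI and 20.8 ± 1.08 RPKM in control, a ratio of 1.10. Wnt7b made up 25.1% to 29.2% of that sum in TBI and 16.1% to 21.6% in control. Wnt9a made up 6.47% to 7.96% in TBI, where it ranked 5th, and 14.6% to 20.4% in control, where it ranked 2nd. The ratio of Wnt9a to Wnt7b was 0.258, 0.272 and 0.258 in TBI, against 1.27, 0.676 and 1.06 in control. In control the order of these levels at the top was thus not the same in every library, and in TBI Wnt7b led in all 3.

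Frizzleds summed to 33.3 ± 0.619 RPKM in TBI and 36.9 ± 0.133 RPKM in control, a ratio of 0.903. Fzd3 accounted for 51.7% to 56.2% of the sum in TBI and 61.3% to 63.6% in control, and without Fzd3 the sums were 15.2 ± 0.973 RPKM in TBI and 13.9 ± 0.471 RPKM in control. Fzd2 ranked 8th among Frizzleds in TBI and 5th in control. Secreted inhibitors summed to 83.1 ± 6.65 RPKM in TBI and 79.5 ± 19.9 RPKM in control, of which Dkk3 was 91.2% to 92.8% in TBI and 92.7% to 96.3% in control. Leaving Dkk3 out, the other 8 inhibitors summed to 6.46 ± 0.386 RPKM in TBI and 3.82 ± 0.362 RPKM in control, a ratio of 1.69. Of these 8 only Sfrp4 was called, at 2.34 ± 0.401 RPKM in TBI and 0.701 ± 0.169 RPKM in control. Sfrp1, Sfrp5 and Dkk2, the last named after its values were seen, also had all TBI libraries above control. No tested inhibitor had all TBI libraries below control. Libraries did not overlap, in either direction, in 34.5% of all rows and 45.6% of named rows. Whether the inhibitors shared a rise was not tested. R-spondins summed to 10.2 ± 0.525 RPKM in TBI and 10.8 ± 1.30 RPKM in control, and LRP co-receptors to 9.32 ± 0.480 RPKM in TBI and 9.24 ± 0.539 RPKM in control. Sums and shares are descriptions and were not tested.

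**Figure D3:**
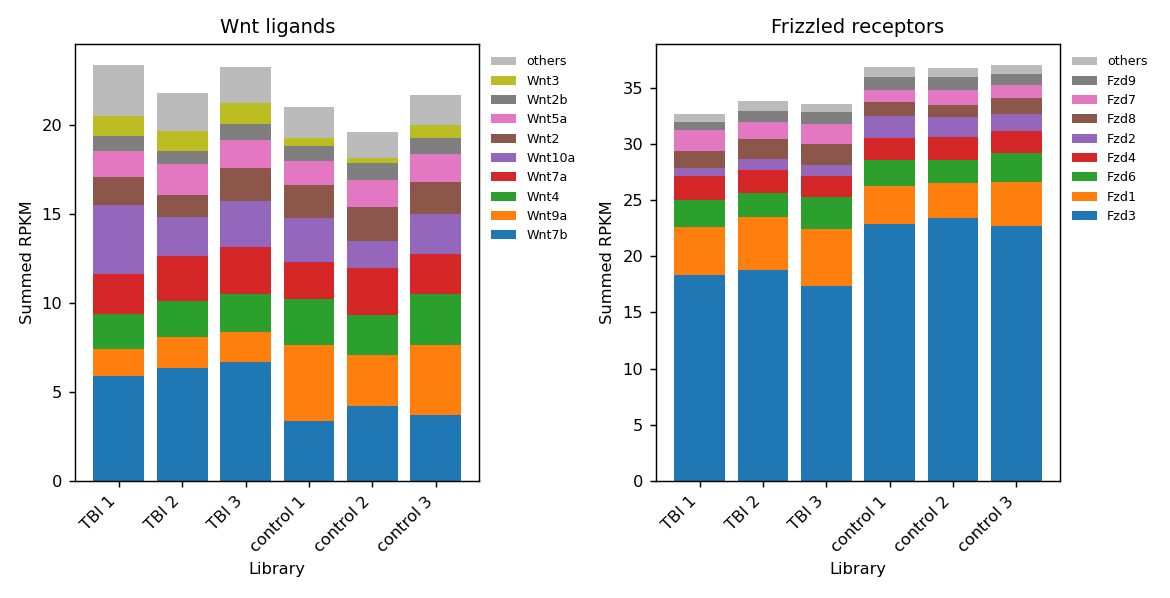
Summed level (RPKM) of the 19 Wnt ligands (left) and the 10 Frizzled receptors (right) in each library, TBI left and control right, stacked by gene with the low genes joined as others. Wnt7b (bottom band, left) is 25.1% to 29.2% of the ligand sum in TBI and 16.1% to 21.6% in control, and Fzd3 (bottom band, right) 51.7% to 56.2% of the Frizzled sum in TBI and 61.3% to 63.6% in control.

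Transcript rows were no independent check on the gene rows. A gene with a single transcript row has the same counts in both, so its call could hardly differ. The 44 genes had 51 transcript rows, of which 46 were tested, 8 were called higher (6 genes) and 6 lower (6 genes) by edgeR, while 19.9% of all 49090 transcript rows tested were called. In no row did the call differ from that of its gene. Only 5 genes had several rows, and these count overlapping reads, so a switch between isoforms of the other genes could not be seen in these files.

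Genes of the pathway outside the family were taken from 5 lists, and 105 of 110 genes were tested. The lists were chosen with earlier results of these data known, so their shares called are descriptions only. Of these 16 rose and 19 fell, 33.3% of those tested, against 17.5% of all rows and 26.1% of named rows, with a median log2 fold change of -0.037. Without TBI replicate 1 or TBI replicate 3 only 10 rose. Among 20 tested genes of Wnt secretion and other receptors, 2 rose and 2 fell (20% called, median log2 fold change 0.18). Kremen1, a receptor for Dickkopf proteins, had 3.52 ± 0.547 RPKM in TBI and 2.15 ± 0.0489 RPKM in control (edgeR adjusted p = 0.00198). Lgr4, a receptor of R-spondins, fell to 5.71 ± 0.216 RPKM in TBI, against 6.70 ± 0.178 RPKM in control (edgeR adjusted p = 0.0127). Mfrp, a membrane Frizzled-related protein, rose and Notum, which removes the lipid of Wnts, fell, at log2 fold changes of 0.54 and -0.77 (edgeR adjusted p = 0.0380 and 0.0326). Porcn and Wls, needed for the secretion of all Wnts, were not called (10.9 ± 0.544 RPKM in TBI and 11.6 ± 0.687 RPKM in control for Porcn, 10.9 ± 0.386 RPKM in TBI and 11.4 ± 0.338 RPKM in control for Wls). Both, like Axin2 and Lef1 below, are named after their values were seen. The Lgr4 call was lost without control replicate 3 (edgeR adjusted p = 0.0595). That of Mfrp was lost without TBI replicates 1 or 2 or control replicates 2 or 3 (0.0867 to 0.177), and that of Notum without any library other than control replicate 2 (0.0507 to 0.117). With limma on log2(RPKM + 0.1) Lgr4 and Notum were not called (adjusted p = 0.0698 and 0.0629).

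Frzb, a Frizzled-related protein close to Sfrp4 in sequence, moved the other way from Sfrp4. Among 10 tested inhibitors outside the family, 1 rose and 2 fell (30.0% called, median log2 fold change -0.027). Frzb had 1.75, 2.05 and 1.80 RPKM in TBI and 4.92, 5.66 and 3.73 RPKM in control. All TBI libraries were far below control, and the log2 fold change was -1.43 ± 0.14 (SE; edgeR adjusted p = 2.41e-05). Dkkl1, a Dickkopf-like protein, fell to 5.13 ± 1.03 RPKM in TBI, against 9.01 ± 1.03 RPKM in control (edgeR adjusted p = 0.00148). Serpinf1, a secreted serpin also named PEDF, rose to 4.45 ± 0.0909 RPKM in TBI, against 3.04 ± 0.414 RPKM in control (edgeR adjusted p = 0.0218). Its call was lost without TBI replicates 1 or 3 or control replicates 1 or 2 (edgeR adjusted p = 0.0571 to 0.0859).

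Inside the cell, most genes of the beta-catenin pathway were not called: of 30 tested, 2 rose and 4 fell (20% called, median log2 fold change -0.059). Beta-catenin itself, Ctnnb1, was among those not called. Tcf7l2, a TCF factor, had 1.73, 1.82 and 2.42 RPKM in TBI and 0.372, 0.427 and 1.29 RPKM in control (log2 fold change 1.42 ± 0.36, SE; edgeR adjusted p = 0.0162). Control replicate 3 was nearer to the TBI libraries than to the other controls. Without control replicate 3 the value for Tcf7l2 was 2.24, and its call was lost without TBI replicate 3 (edgeR adjusted p = 0.0619), without control replicate 1 (0.0556) and with DESeq2 (adjusted p = 0.0887). The co-repressor genes moved both ways, with Tle3 at a log2 fold change of 0.52 and Tle4 at -0.52 (edgeR adjusted p = 0.00658 and 0.00260). Pygo1, a co-activator, Apc2, a scaffold of the destruction complex, and Gsk3b, its kinase, fell by 0.38, 0.38 and 0.22 on the log2 scale. The call of Apc2 was lost without any library other than control replicate 3 (edgeR adjusted p = 0.0549 to 0.146), and that of Gsk3b without any library other than TBI replicate 3 (0.0607 to 0.145). Limma on log2(RPKM + 0.1) called neither (adjusted p = 0.158 and 0.186).

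Of 20 tested genes known as Wnt targets or feedback genes, 7 rose and 5 fell (median log2 fold change 0.28). These are 60.0% of those tested, against 26.1% of named rows. The list was chosen with earlier results of these data known, so its share cannot be read as an enrichment. Many of its genes answer to other signals too. The rises were in Cd44, an adhesion receptor (log2 fold change 4.61), Myc (1.86), Fosl1 (1.43), Jun (1.40) and Ccnd1 (1.02), all growth or immediate early genes apart from Cd44, and in Plvap, an endothelial protein of leaky vessels (0.83). Ccnd1, which encodes cyclin D1, had 23.3, 20.5 and 23.6 RPKM in TBI and 10.6, 10.6 and 10.3 RPKM in control. Axin2, the feedback gene most used to read beta-catenin signalling, fell to 3.45, 3.52 and 3.22 RPKM in TBI, against 4.27, 4.10 and 4.29 RPKM in control. The libraries of Axin2 did not overlap, and its log2 fold change was -0.39 ± 0.08 (SE; edgeR adjusted p = 0.00644). The other falls in this list, named after their values were seen, were in Fgf9, Abcb1a, Nrcam and Sp8. Their log2 fold changes were -0.46, -0.46, -0.26 and -0.88 (edgeR adjusted p = 0.00413, 0.00574, 0.0431 and 0.0455). Sp8 was low, at 0.307, 0.297 and 0.393 RPKM in TBI and 0.402, 0.913 and 0.431 RPKM in control. The size of its fall depends on control replicate 2, which stood well above the other control libraries. Lef1, a target that is itself a TCF/LEF factor, rose to 1.31 ± 0.0468 RPKM in TBI, against 0.816 ± 0.184 RPKM in control (edgeR adjusted p = 0.0238). Without TBI replicates 1 or 3 or control replicates 1 or 2 the call of Lef1 was lost (edgeR adjusted p = 0.0629 to 0.0844). Without any 1 of the TBI libraries, and with limma on log2(RPKM + 0.1), 3 genes of this list fell in place of 5.

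In the planar polarity and calcium branch, 4 of 25 tested genes rose and 6 fell (40.0% called, median log2 fold change -0.10). Nlk, a kinase that acts on TCF factors, fell to 14.1 ± 1.07 RPKM in TBI, against 24.3 ± 1.91 RPKM in control, and Prkca, a protein kinase C, to 14.3 ± 1.42 RPKM in TBI, against 22.7 ± 0.442 RPKM in control. Mapk8, which encodes the kinase JNK1, fell by 0.40 on the log2 scale. The polarity genes Prickle1, Prickle2 and Daam2 fell by 0.60, 0.39 and 0.36 on the same scale. The 4 rises, named after their values were seen, were in the core polarity gene Vangl1 (log2 fold change 0.73, edgeR adjusted p = 0.0113), Nfatc1 (0.71, 0.0194) and Nfatc3 (0.30, 0.0255), transcription factors of the calcium branch, and Rhoa, a small GTPase (0.25, 0.0451). Vangl1 was called under all 13 alternatives. The calls of Nfatc1 and Nfatc3 were lost without TBI replicates 1 or 3 or control replicates 1 or 3 (edgeR adjusted p = 0.0608 to 0.0918 for Nfatc1 and 0.0650 to 0.0925 for Nfatc3), and that of Nfatc1 also with limma on log2(RPKM + 0.1) (adjusted p = 0.0705). Rhoa lost its call without any 1 library (edgeR adjusted p = 0.0604 to 0.119), with RLE size factors (0.0508) and with no filter on low counts (0.0574). Without TBI replicate 1, TBI replicate 3 or control replicate 3 only 1 gene of this list rose, and without control replicate 1 there were 2. For Daam2 the call was lost with limma on log2(RPKM + 0.1) (adjusted p = 0.0530).

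**Figure D4:**
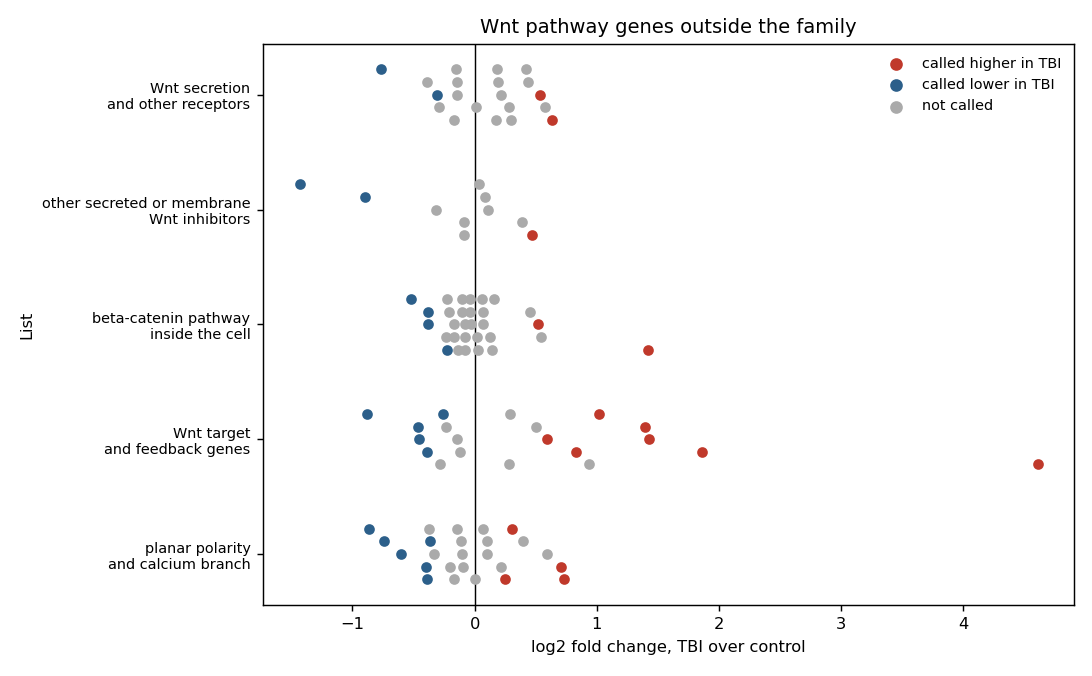
Fitted log2 fold change of TBI over control for the 105 tested pathway genes outside the family, one row of points per list, red where called higher in TBI, blue where called lower and grey where not called. The vertical offset of the points within a list has no meaning; called genes lie on both sides of 0 in every list, with Cd44 far to the right at 4.61.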

How the data were processed

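Each library has a count column and an RPKM column in the deposited gene and transcript tables, per the file headers. TopHat2 and build mm10 are named in the submitters' processing notes. How the authors counted, with which strand setting and annotation, is not given in the sources used here. The labels' protocols describe fragmented total RNA with strand marking by deoxy-UTP. Row lengths were derived from the deposited counts and RPKM themselves, as a median over the libraries. For counts of 10 or more, RPKM recomputed with that length and the column total differed by at most 8.18e-06 (relative). This shows only that RPKM was scaled to the column total with the same length in every library. The lengths themselves were not checked.

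Counts of all gene rows were tested with edgeR 4.0.16 in R 4.3.3 (quasi-likelihood F test, filterByExpr with minimum count 10 and minimum total 15, TMM, Benjamini-Hochberg adjustment over 42762 rows, call at adjusted p under 0.05). The SE is the log2 fold change divided by the root of F. Transcript counts were treated alike. Alternatives were DESeq2 1.42.0, limma-voom and limma 3.58.1 on log2(RPKM + 0.1), RLE size factors, no filter, no FANTOM3 rows, a replicate block, and each library left out. The test was also run on simulated counts in which few rows were changed, and by more than many of the changes described here. That setting differs from these data, and its outcome is not reported here.

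A member is described in every library where it was called or reached a mean of 1 RPKM in either group. Up to 6 called genes per pathway list are named, besides those marked as named after their values were seen. The members and lists were chosen with earlier results of these data known. RPKM scaling puts TBI 0.08 (log2) higher against control than TMM. Depth was 67252519 to 83929814 counts per library. Promoter windows come from the RefSeq table of GRCm38.p6.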

Additional observations from a re-analysis of the deposited data

How the results depend on the processing

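The counts of members called (6 higher, 6 lower) stayed within 1.5 times under all 13 alternatives, at 4 to 7 each way. Transcript counts (8 and 6), for which only the block, no filter and each left-out library were tried, were 6 to 9 higher and 4 to 7 lower. The limits are 3 libraries per group, no statement that they are separate animals, and low counts for 19 members. Same-numbered libraries correlated in their deviations from the group means at 0.0462, 0.0491 and 0.0423, below 0.1, so the numbers were not taken to pair samples. Each correlated best with its own number (others -0.0294 to -0.0121), a hint from the data only. With the number as a block, 14 members were called (7 higher, 7 lower), as were 8259 rows in all, 9 and 7 transcripts, and 19 and 18 pathway genes. By list the block called 3 and 2 (secretion and other receptors), 1 and 2 (other inhibitors), 2 and 3 (beta-catenin), 8 and 5 (targets), and 5 and 6 (polarity), higher and lower. The block added a call for Sfrp5 (adjusted p = 0.00432) and ended that of Gsk3b (0.0637).

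With limma on log2(RPKM + 0.1), 12 pathway genes were lower in all lists, 0 of secretion and other receptors, 2 of the beta-catenin list and 3 of the targets. With DESeq2 1 gene of the beta-catenin list was higher. Leaving out 1 library gave 10 to 15 higher and 14 to 21 lower pathway genes. By list these were 1 to 2 higher and 0 to 2 lower (secretion and other receptors), 0 to 1 higher and 2 lower (other inhibitors), 1 to 2 higher and 2 to 4 lower (beta-catenin), 6 to 7 higher and 3 to 5 lower (targets), and 1 to 4 higher and 6 to 8 lower (polarity). Fewer samples enter these fits. The Frizzled sum was 0.854 of control with TMM-scaled values and 0.897 to 0.913 without 1 library; the cause was not tested.

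Among the named members, the sign changed only in some that were near 0 and not called. Under limma on log2(RPKM + 0.1) the log2 fold change was 0.054 for Dkk3, 0.051 for Fzd4, 0.054 for Fzd6 and 0.078 for Wnt7a, and with the block 0.0018 for Wnt7a. Without 1 library it ran from -0.29 to 0.066 for Dkk3, -0.063 to 0.0077 for Fzd4, -0.13 to 0.075 for Fzd6, -0.057 to 0.39 for Rspo2, -0.014 to 0.11 for Wnt5a and -0.069 to 0.081 for Wnt7a. The libraries whose absence turned the sign were control replicates 1 and 3 (Dkk3), TBI replicate 3 (Fzd4), TBI replicate 2 and control replicate 3 (Fzd6), control replicate 2 (Rspo2), TBI replicate 2 and control replicate 1 (Wnt5a), and TBI replicate 1 and control replicate 2 (Wnt7a).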
